A study of Mus musculus with 42 samples.

Results

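The ribosomal protein pseudogenes described here were the rows of a mouse retina expression table whose symbol joins a ribosomal protein name to the ending -ps, together with Gm10073, Gm11273, Gm11808 and Gm9843. Of 25700 genes listed, 13 met this rule, and 9 were kept because their FPKM (fragments per kilobase of gene, scaled to the fragments mapped in each library, the unit used throughout) was above 0 in at least 6 of 42 mice. The kept members were Gm9843, Gm10073, Rpl9-ps6, Gm11273, Gm11808, Rpl10-ps3, Rpl36a-ps1, Rpl27-ps3 and Rpl13a-ps1. The members were thus selected in part on measured FPKM: all 9 passed a limit on detection, and the 4 Gm genes, which the name rule does not take, were added by name with earlier results of these data known, so their values are given as a description and without a p-value. The limit on mice cut far from any member. Rpl27-ps3 and Rpl36a-ps1, just inside it, were above 0 in 17 mice each, whereas Rpl7a-ps5, just outside it, was above 0 in 2 mice and Rpl36-ps4, Rpl9-ps1 and Rps12-ps3 were listed at 0 in all 42.

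Processed pseudogenes arise when the messenger RNA of a gene is copied into DNA and inserted elsewhere in the genome, which leaves a copy without introns and usually without the promoter of its parent gene. Ribosomal protein genes are expressed at high levels in nearly every cell and have given rise to many such copies in mammals. Most copies are silent. Some retain an intact reading frame and are annotated as protein-coding genes. Because a young copy is nearly identical to its parent, a short sequencing read can often be placed on either of them.

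Comparison of the GENCODE M21 transcripts (mouse genome build GRCm38) showed which gene a member copies. Rpl9-ps6, Rpl10-ps3, Rpl13a-ps1, Rpl27-ps3 and Rpl36a-ps1 were closest to the gene in their name. Gm10073 was closest to Rplp1, an acidic protein of the ribosomal stalk, over 496 bases with 6 differences. Gm9843 matched Fau, which encodes a ubiquitin-like protein fused to ribosomal protein S30, over 402 bases without a difference. Gm11273 was not a ribosomal protein sequence: it was closest to Cox5b, a subunit of cytochrome c oxidase of the mitochondrial respiratory chain, with 3 differences over 390 bases. The label of the set thus did not hold for Gm11273.

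The sequences below are shown because the members and their parents differ by so few bases. Each is a 60-base stretch within the coding part of the parent, read 5′ to 3′ on the strand of the gene, and capitals mark the bases that differ. The pair of Rpl9-ps6 (chr19:32466257-32466316, minus strand) and Rpl9 (chr5:65389574-65390410, minus strand) holds the only difference in their 692 aligned bases, G293A, in which the base of the parent comes first and positions count from the first base of the pseudogene transcript. In Rpl9 the same stretch is divided over 2 exons, and in Rpl9-ps6 it is continuous.
Rpl9-ps6: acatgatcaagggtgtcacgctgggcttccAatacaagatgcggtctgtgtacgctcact
Rpl9: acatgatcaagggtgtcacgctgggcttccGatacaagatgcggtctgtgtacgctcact
The pair of Gm10073 (chr8:106573291-106573350, minus strand) and Rplp1 (chr9:61914369-61914428, minus strand) starts at the start codon and holds 2 of their 6 differences, C120T and A164G.
Gm10073: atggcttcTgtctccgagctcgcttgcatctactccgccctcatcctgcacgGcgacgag
Rplp1: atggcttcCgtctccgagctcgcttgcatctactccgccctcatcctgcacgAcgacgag
The pair of Gm11273 (chr13:21501276-21501335, minus strand) and Cox5b (chr1:36691670-36692250, plus strand, 2 exons) holds C114T, which is 1 of their 3 differences.
Gm11273: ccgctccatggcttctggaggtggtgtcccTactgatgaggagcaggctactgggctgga
Cox5b: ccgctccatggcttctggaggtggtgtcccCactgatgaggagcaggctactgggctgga
The first coding bases of Gm9843 (chr16:76403593-76403652, minus strand) are letter for letter those of Fau (chr19:6058251-6058310, plus strand).
Gm9843: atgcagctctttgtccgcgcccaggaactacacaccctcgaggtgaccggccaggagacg

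The members shared other features. A -ps name marks a copy of the named gene, and parents were sought among transcripts with several exons. Exon number and identity are therefore not independent of how members and parents were chosen. All 9 had a single exon in GENCODE M21, where the aligned part of the parents named here crossed 2 to 7 exon junctions. Identity to these parents ran between 95.26% for Rpl13a-ps1 and 100% for Gm9843, Rpl10-ps3 and Rpl27-ps3. Of the 9, 6 were annotated as protein_coding and 3 (Gm9843, Rpl13a-ps1 and Rpl27-ps3) as processed_pseudogene. They lay on 8 chromosomes at the deposited positions, with Rpl13a-ps1 (chr19:50030124-50030735) and Rpl9-ps6 (chr19:32465885-32466575) together on chromosome 19, and 8 of the 9 were on the minus strand. Of the genes outside the limit on mice, Rps12-ps3 (chr19:59322290-59322783) was identical to Rps12 over 494 bases and was listed at 0 in every mouse. How reads that fit a pseudogene and its parent alike were assigned is not given in the sources used here, so the levels below are those the authors' counting gave to each gene and may be shared between near-identical copies.

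Retinas of 42 C57BL/6J mice, 6 per group, gave RNA for sequencing, 1 retina per mouse. Normobaric hypoxia in Zurich (ZH, 400 m above sea level) was applied at 7% O2 for 6 h (07-06h-ZH) or at 14% O2 for 6 h (14-06h-ZH), 48 h (14-48h-ZH) or 11 weeks (14-11w-ZH). Hypobaric hypoxia on the Jungfraujoch (JFJ, 3450 m above sea level) lasted 48 h (14-48h-JFJ) or 7 weeks (14-07w-JFJ), and normoxic mice in Zurich (Normoxia) were the controls. Per the study's methods the animals were aged 9 to 11 weeks when exposure began, the Normoxia group ended 11 weeks later, and JFJ retinas were isolated without a microscope. Library codes in the labels fell into 5 series: 1 held Normoxia and 14-11w-ZH, 1 held 14-06h-ZH and 14-48h-ZH, and the other 3 groups had a series each. What the series stand for is not stated. Except for 14-11w-ZH, every hypoxic group was thus in another code series than Normoxia, and code series and hypoxia cannot be told apart there.

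The libraries whose depth could be recovered (36 of 42) held between 13986520 and 33595709 reads in genes, and the group medians lay between 16811923 and 19759224. Rod markers were high and even (summed FPKM of 6 genes between 34994 and 52559 in any mouse), as the retina label requires. Markers of neighbouring tissue varied: the summed FPKM of 5 red blood cell markers was 87.6 to 1877 in 07-06h-ZH, 75.1 to 417.9 in 14-48h-JFJ, 77.7 to 405.3 in 14-07w-JFJ, 33.6 to 83.2 in 14-06h-ZH, 47.8 to 86.2 in 14-48h-ZH, 41.4 to 77 in 14-11w-ZH and 23.4 to 554.7 in Normoxia. The summed FPKM of 5 pigment cell markers was 39.0 to 502.8 in 14-07w-JFJ, 28.4 to 496.7 in 14-48h-JFJ, 81.7 to 341.1 in 07-06h-ZH, 5.39 to 249.5 in 14-06h-ZH, 16.2 to 36.8 in 14-48h-ZH, 5.19 to 47.7 in 14-11w-ZH and 7.31 to 281.0 in Normoxia. The summed FPKM of 5 lens markers was 29.7 to 25603 for 14-06h-ZH, 9.75 to 37958 for 14-48h-JFJ, 61.4 to 9091 for 14-48h-ZH, 3.0 to 10391 for 14-07w-JFJ, 7.64 to 13337 for 14-11w-ZH, 0.104 to 108.1 for 07-06h-ZH and 4.06 to 6688 for Normoxia. By mean log2 level they were highest in 14-06h-ZH (6.20) and 14-48h-ZH (5.20), against 3.58 in Normoxia, and lowest in 07-06h-ZH (-0.40). The mean log2 level of 5 surface epithelium markers was 1.34 for 14-06h-ZH, 1.16 for 14-07w-JFJ, 0.82 for 14-48h-ZH, 0.66 for 14-48h-JFJ, -0.04 for 14-11w-ZH and -0.85 for 07-06h-ZH, against -0.15 for Normoxia. Expression of Y-linked genes was seen in all 6 mice of 14-11w-ZH, in 3 of 6 mice of each other hypoxic group and in all 6 of Normoxia. The part of these features in the results was not tested.

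The 9 members together were lowest in the 2 groups that share a code series, 14-06h-ZH and 14-48h-ZH, and highest in 07-06h-ZH and 14-07w-JFJ. Their summed FPKM was 2.31 ± 0.495 in 14-06h-ZH and 2.13 ± 0.292 in 14-48h-ZH. It was 33.1 ± 6.19 in 14-48h-JFJ, 27.9 ± 4.76 in 14-11w-ZH and 24.4 ± 6.59 in Normoxia. The highest sums were 53.3 ± 19.4 in 07-06h-ZH and 62.5 ± 11.6 in 14-07w-JFJ (mean ± SD, n = 6 each). Without Gm11273, the Cox5b copy, the sums had the same order, from 2.01 ± 0.317 in 14-48h-ZH to 55.3 ± 11.1 in 14-07w-JFJ, with 21.7 ± 6.37 in Normoxia. Much of each sum came from Gm genes, chosen with results known, so the order of the sums is a description. In Normoxia Gm9843 averaged 6.91 FPKM and Gm10073 6.73, against 5.11 for Rpl9-ps6, the highest -ps member. The spread within Normoxia overlapped that of 14-11w-ZH and of 14-48h-JFJ. These 3 neighbours in the order did not stand apart, and neither did the 2 at the top. In whole retinas, fewer cells of a type and less RNA per cell cannot be told apart.

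**Figure D1:**
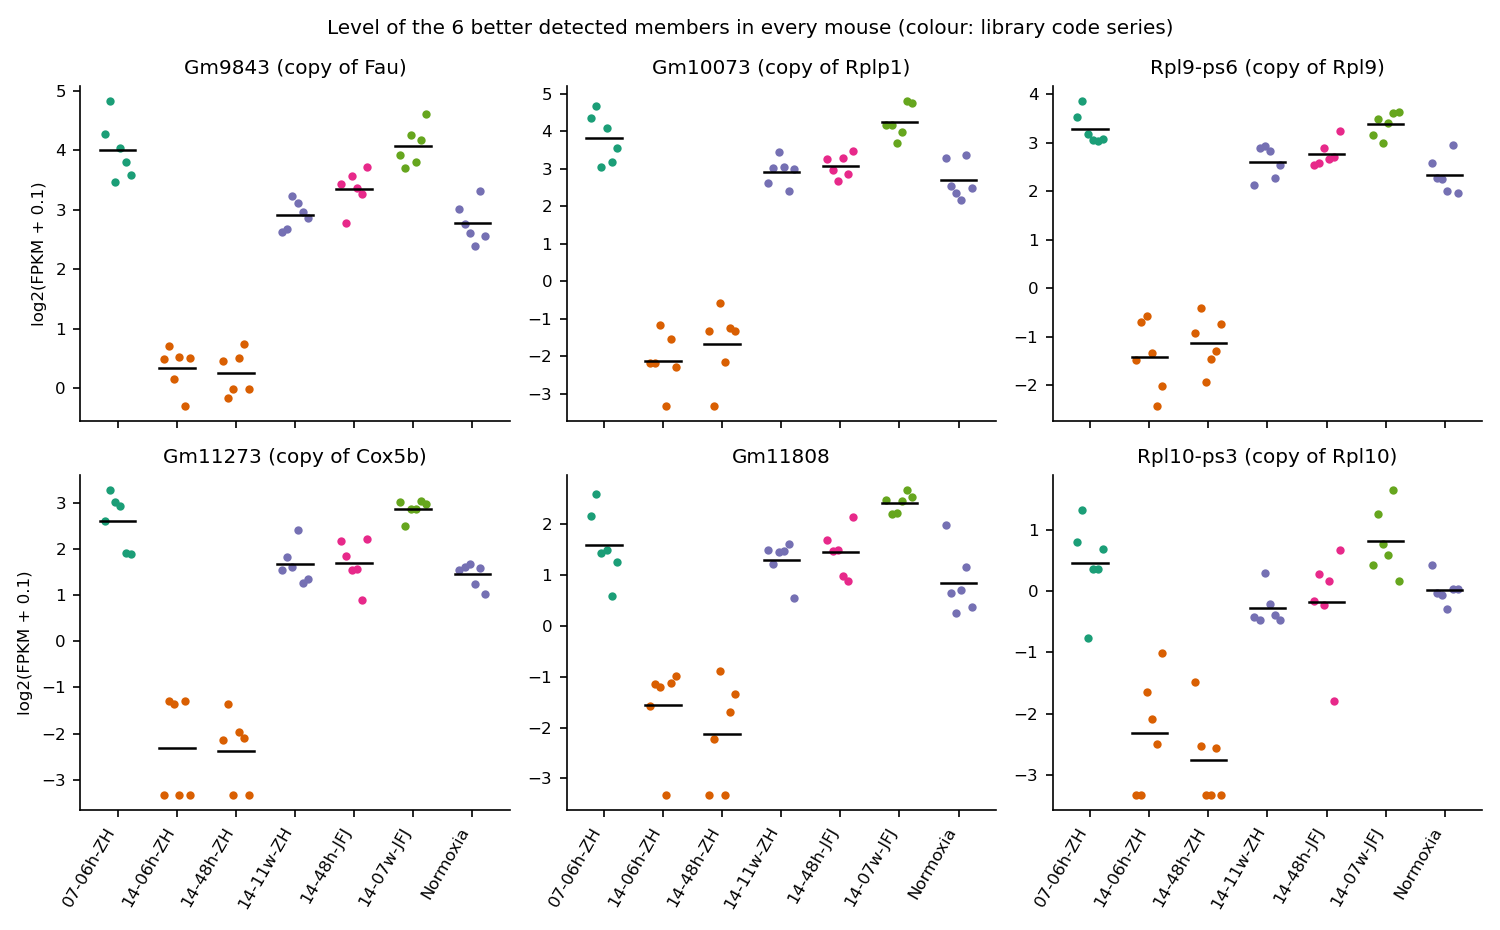
Level of the 6 better detected members, as log2(FPKM + 0.1), in each of the 42 mice (points, coloured by library code series) with the group mean (line). In every panel the 14-06h-ZH and 14-48h-ZH means lie lowest, and for all but Rpl10-ps3 none of their mice reaches a mouse of another group.

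Rpl9-ps6 was the best detected member with a -ps name. Its parent encodes ribosomal protein L9 of the large subunit. In 14-06h-ZH its FPKM had a lowest, median and highest value of 0.0869, 0.278 and 0.571, against 3.79, 4.72 and 7.67 in Normoxia. In 14-48h-ZH they were 0.161, 0.365 and 0.657. Neither group overlapped Normoxia. Counted as reads, 21 reads over 5 libraries of 14-06h-ZH and 30 over 6 of 14-48h-ZH stood against 231 over 4 libraries of Normoxia. The log2 fold change, taken on log2(FPKM + 0.1) as for all genes, was -3.76 ± 0.290 (SE) in 14-06h-ZH (limma, Benjamini-Hochberg adjusted p = 3.309e-07) and -3.47 ± 0.236 in 14-48h-ZH (adjusted p = 5.130e-08, limma).

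Rpl10-ps3 copies the gene of ribosomal protein L10, which lies where both ribosomal subunits meet. It was a low gene, with FPKM between 0 and 0.398 (median 0.106) in 14-06h-ZH and between 0 and 0.255 (median 0.0343) in 14-48h-ZH, against 0.715 to 1.23 (median 0.895) in Normoxia. Again no mouse of the first 2 groups reached the Normoxia mice. The log2 fold changes were -2.32 ± 0.338 (limma adjusted p = 6.824e-05) and -2.77 ± 0.280 (limma adjusted p = 1.826e-06). They rest on 6 reads over 5 libraries of 14-06h-ZH and 6 over 6 of 14-48h-ZH, against 53 over 4 of Normoxia, and with a pseudocount of 1 they fell to -0.76 and -0.85, short of the limit of 1 that a call needed.

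A gene was called when its adjusted p was at most 0.05 and its log2 fold change at least 1 in either direction. In 14-06h-ZH against Normoxia 2 of the 5 -ps members could be tested, Rpl9-ps6 and Rpl10-ps3, and both were called lower. Over all genes tested 0.585% were called lower. In 14-48h-ZH against Normoxia the same 2 were called lower, where 0.604% of all genes were. Both comparisons use the same Normoxia mice. The other 3 -ps members were at 0 FPKM in over 3 mice of a group and were not tested.

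The 4 Gm genes, whose choice was not independent of such values, also passed the limits of a call in both comparisons, which is given as a description and not read against the shares of all genes. Their levels were as follows. Gm10073 had a lowest, median and highest FPKM of 0, 0.120 and 0.341 in 14-06h-ZH and 0, 0.298 and 0.562 in 14-48h-ZH, against 4.43, 5.58 and 10.1 in Normoxia. Its log2 fold changes, -4.82 and -4.36, were the lowest among the members. Gm9843 kept the most signal in both groups. It had 0.715, 1.31 and 1.53 FPKM in 14-06h-ZH and 0.788, 1.07 and 1.57 FPKM in 14-48h-ZH, against 5.12, 6.33 and 9.88 FPKM in Normoxia, and its log2 fold changes were -2.43 and -2.53. Gm11273 averaged 0.150 ± 0.165 FPKM in 14-06h-ZH and 0.118 ± 0.109 in 14-48h-ZH, against 2.66 ± 0.457 in Normoxia (SD, n = 6 each). As this Cox5b copy was chosen with results known, nothing is read from its low level beside the ribosomal protein copies. Gm11808 averaged 0.281 ± 0.149 FPKM in 14-06h-ZH and 0.177 ± 0.174 in 14-48h-ZH, against 1.88 ± 1.04 in Normoxia (SD, n = 6 each).

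**Figure D2:**
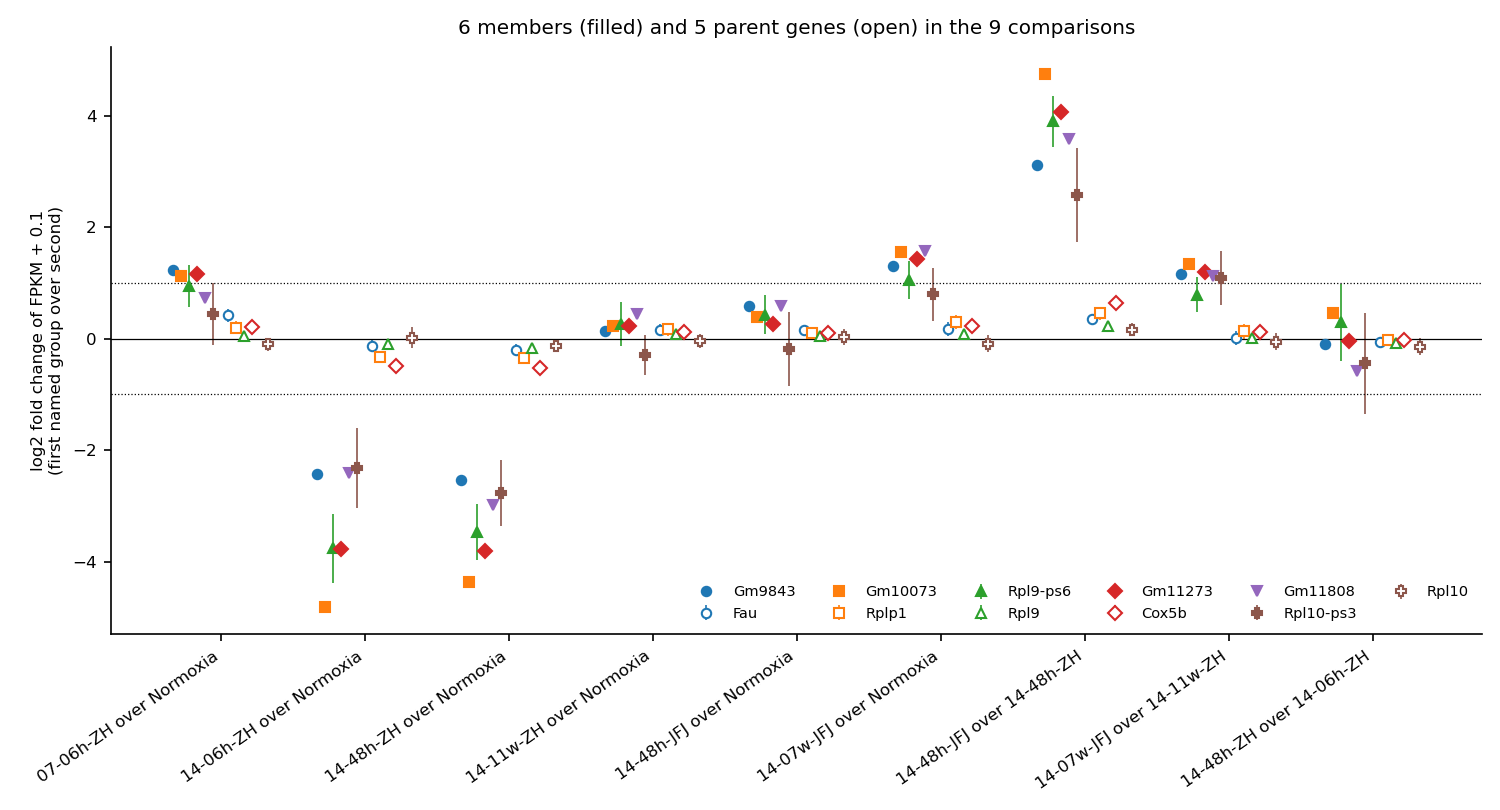
Log2 fold change on FPKM + 0.1 of 6 members (filled) and the parent genes of 5 of them (open) in the 9 comparisons, first named group over second; bars are 95% intervals of the limma fit, drawn for the -ps members and these parents, and dotted lines mark the limit of 1 in either direction. The members reach -4.82 and 4.75 where 1 group comes from the series shared by 14-06h-ZH and 14-48h-ZH, and the 5 parents stay within 1.

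Fold changes in 07-06h-ZH against Normoxia were positive, and limma called none in a -ps member. This group had a code series of its own, and Y-linked genes were expressed in 3 of its 6 mice, against 6 of 6 of Normoxia. Severe hypoxia cannot be told apart from these differences. In 07-06h-ZH all 7 members tested had a positive log2 fold change, between 0.27 for Rpl36a-ps1 and 1.23 for Gm9843, and 2.87% of all genes tested were called higher. Gm9843, Gm11273 and Gm10073 passed the limits of a call, which is no test for genes chosen with results known. There were 3 tested -ps members. Rpl9-ps6 had 8.06, 8.61 and 14.4 FPKM (lowest, median and highest) in 07-06h-ZH, against 3.79, 4.72 and 7.67 in Normoxia, and the groups did not overlap. Its log2 fold change was 0.95 ± 0.177 (SE, limma adjusted p = 0.0005142), under the limit of 1 by a small margin. It passed the limit with edgeR on recovered reads, at 1.19, and with limma without replicate 5 of Normoxia. Rpl10-ps3 had a log2 fold change of 0.44 ± 0.264 (adjusted p = 0.1918, limma), and 1 mouse of 07-06h-ZH, at 0.487 FPKM, was below every Normoxia mouse. Gm9843 averaged 16.8 ± 6.42 FPKM in 07-06h-ZH and 6.91 ± 1.76 in Normoxia, and Gm10073 averaged 15.2 ± 6.81 in 07-06h-ZH and 6.73 ± 2.50 in Normoxia (SD, n = 6 each). Gm10073 was under the limits without replicate 2 of 07-06h-ZH.

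Rpl9-ps6 was higher in the mice kept for 7 weeks on the Jungfraujoch, a group with a code series of its own, than in Normoxia. In 14-07w-JFJ against Normoxia 1 of 3 -ps members tested, Rpl9-ps6, was called higher, where 0.277% of all genes tested were. The 4 Gm genes passed the same limits, as a description. Rpl9-ps6 had 7.91, 10.8 and 12.3 FPKM in 14-07w-JFJ (lowest, median and highest), all above the highest Normoxia value of 7.67. Its log2 fold change was 1.05 ± 0.160 (SE, limma adjusted p = 0.003736). The call sat close to the limit and was lost when replicate 6 of 14-07w-JFJ or replicate 4 or 6 of Normoxia was left out, in 3 of 12 such fits. Rpl10-ps3 had a log2 fold change of 0.79 ± 0.225 (adjusted p = 0.08006, limma). Gm10073 averaged 19.8 ± 6.14 FPKM in 14-07w-JFJ and 6.73 ± 2.50 in Normoxia, Gm9843 17.2 ± 4.23 and 6.91 ± 1.76, Gm11273 7.26 ± 0.934 and 2.66 ± 0.457, and Gm11808 5.32 ± 0.681 and 1.88 ± 1.04, in the same order of groups (SD, n = 6 each).

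After 48 h on the Jungfraujoch limma and edgeR called no member against Normoxia (1 of 3 -ps members tested, Rpl9-ps6, had an unadjusted p under 0.05 in limma), where 0.246% of all genes tested were called in either direction. Rpl9-ps6 had a log2 fold change of 0.43 (95% interval 0.09 to 0.78, limma adjusted p = 0.1273) and Rpl10-ps3 one of -0.19 (-0.85 to 0.47, limma adjusted p = 0.7714). Of the 7 members tested, 5 had a positive value and 2 a negative one.

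The comparisons within a code series gave no call of a member with limma or edgeR, and no -ps member had an unadjusted p under 0.05 in limma. In 14-11w-ZH against Normoxia, the only hypoxic group with controls of its own series, 0 of 7 members tested were called, where 0.0351% of all genes tested were, and the lowest adjusted p of any member was 0.3645 (limma). Rpl9-ps6 averaged 6.11 ± 1.38 FPKM in 14-11w-ZH and 5.11 ± 1.46 in Normoxia (SD, n = 6 each), a log2 fold change of 0.26 with a 95% interval of -0.13 to 0.65. In 14-48h-ZH against 14-06h-ZH 0 of 6 members were called, where 0.0641% of all genes tested were, and Rpl9-ps6 had a log2 fold change of 0.29 (95% interval -0.40 to 0.98), at 1 to 8 reads per library.

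Levels were higher in the Jungfraujoch groups than in the Zurich groups set against them, with a larger difference after 48 h. Both comparisons crossed code series, and the longer one set 7 weeks against 11 weeks. Y-linked genes were expressed in 3 of 6 mice of 14-07w-JFJ and in 6 of 6 of 14-11w-ZH. Altitude cannot be told apart from these differences. In 14-48h-JFJ against 14-48h-ZH both -ps members tested were called higher, where 1.27% of all genes tested were, and the 4 Gm genes passed the same limits, as a description. Rpl9-ps6 had 5.74, 6.32 and 9.34 FPKM in 14-48h-JFJ (lowest, median and highest), against 0.161, 0.365 and 0.657 in 14-48h-ZH, a log2 fold change of 3.90 ± 0.215 (SE, limma adjusted p = 4.319e-09). Rpl10-ps3 had 0.190, 0.907 and 1.48 FPKM in 14-48h-JFJ, against 0, 0.0343 and 0.255 in 14-48h-ZH, and 1 mouse of each group overlapped (log2 fold change 2.58 ± 0.396, limma adjusted p = 0.0001154). In 14-07w-JFJ against 14-11w-ZH 1 of 4 -ps members tested, Rpl10-ps3, was called higher, where 0.235% of all genes tested were, and the 4 Gm genes passed the same limits, as a description. The log2 fold changes of the 8 members were between 0.11 for Rpl13a-ps1 and 1.34 for Gm10073. The call of Rpl10-ps3 (log2 fold change 1.09 ± 0.233, limma adjusted p = 0.03191) was lost in 7 of 12 fits that left out 1 mouse, and Rpl9-ps6 stayed under the limit (0.78 ± 0.148, limma adjusted p = 0.02133). The difference between the 2 altitude comparisons, 48 h minus weeks, was 3.11 ± 0.279 for Rpl9-ps6 (SE, limma adjusted p = 1.574e-08) and 1.49 ± 0.481 for Rpl10-ps3 (limma adjusted p = 0.02268), where 1.06% of all genes tested were called. This model was chosen after the data were seen.

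The step between code series was complete for 1 of the 5 -ps members, Rpl9-ps6, and for the 4 Gm genes, whose choice was not independent of it. In these 5 genes all 12 mice of 14-06h-ZH and 14-48h-ZH were below all of the other 30, which held for 2.41% of the genes detected in at least 6 mice (454 genes, with 106 all above). Nothing is read from that share for the Gm genes. On the deposited normalised counts the same 5 members were below, beside 284 genes below and 275 above. The highest of the 12 values and the lowest of the other 30 were 0.562 and 4.43 FPKM for Gm10073, 0.308 and 1.74 for Gm11273, 0.657 and 3.79 for Rpl9-ps6, 0.442 and 1.09 for Gm11808 and 1.57 and 5.12 for Gm9843. In Rpl10-ps3 they were 0.398 and 0.190 and overlapped. The other 30 include every mouse of 14-11w-ZH, 14-48h-JFJ and 14-07w-JFJ, which were also at 14% O2 or its hypobaric equal. These groups differed from the 12 mice in code series and in duration or altitude, and the part of oxygen was not tested. None of the 7 other genes with a symbol ending in -ps that met the same limit on mice had all 12 mice below or all above the rest. At the share of all genes given above, 7 genes are too few to show a contrast with the members. Only 2 of the 7 had a mean of at least 1 FPKM. Rps27rt, a retrogene copy of the ribosomal protein gene Rps27 that the name rule does not take, was chosen for mention after its values were seen; it averaged 0.0489 FPKM in the 12 mice and 5.20 FPKM in the other 30, and ranked second of 18829 genes by that ratio, between Gm10073 and Gm11273.

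The 3 weakest members gave at most 8 reads in any library. Rpl13a-ps1, whose parent encodes ribosomal protein L13a, was above 0 in 2 mice of 14-06h-ZH and 0 of 14-48h-ZH, against 1 mouse of Normoxia, and in 4 of 07-06h-ZH, 4 of 14-11w-ZH, 5 of 14-48h-JFJ and 5 of 14-07w-JFJ. Its highest FPKM in any mouse was 0.238. Rpl27-ps3 was above 0 in 4 mice of 07-06h-ZH, 1 of 14-06h-ZH, 0 of 14-48h-ZH, 2 of 14-11w-ZH, 5 of 14-48h-JFJ and 5 of 14-07w-JFJ, against 0 of Normoxia, at up to 5 reads per library. Rpl36a-ps1 was at 0 in all mice of 14-06h-ZH and 14-48h-ZH and above 0 in 3 of Normoxia. At this depth the order of groups in these 3 genes cannot be read beyond detection.

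The parent genes moved far less than their copies. Rpl9 averaged 181.6 ± 8.80 FPKM in 14-06h-ZH and 172.2 ± 6.18 in 14-48h-ZH, against 193.7 ± 5.51 in Normoxia (SD, n = 6 each), and its log2 fold changes were -0.09 (limma adjusted p = 0.05599) and -0.17 (limma adjusted p = 0.0002952). Rpl10 had values of 0.02 (limma adjusted p = 0.8913) and -0.13 (limma adjusted p = 0.05018). Rplp1 had -0.33 and -0.36 (limma adjusted p = 3.898e-05 and 4.968e-05). Rpl27 had the largest shifts among the 8 parents, -0.54 and -0.59. Cox5b followed with -0.50 and -0.53, with 106.1 ± 4.28 FPKM in 14-06h-ZH and 104.1 ± 5.01 in 14-48h-ZH, against 150.1 ± 6.72 in Normoxia. In 07-06h-ZH and 14-07w-JFJ, where the copies were high, Rpl9 differed by 0.05 (adjusted p = 0.2812, limma) and 0.09 (adjusted p = 0.1516, limma). Other parents were higher there. Rplp1 differed by 0.20 and 0.30 (limma adjusted p = 0.00813 and 0.01235) and Cox5b by 0.21 and 0.23 (0.001359 and 0.005943). Fau differed by 0.42 and 0.17 (2.231e-05 and 0.1343) and Rpl36a by 0.32 and 0.32 (0.000323 and 0.01953). Rpl13a had 0.03 and 0.03, Rpl27 -0.01 and 0.09, and Rpl10 -0.11 and -0.09. None of the 8 parents named here was called in any of the 9 comparisons.

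All 80 cytosolic ribosomal protein genes of a list taken from textbook nomenclature were in the table. None of them was called in any of the 9 comparisons, and their largest log2 fold change in either direction was 0.76. Small shifts were common: with an adjusted p of at most 0.05, 38 of the 80 were lower in 14-06h-ZH and 60 were lower in 14-48h-ZH than in Normoxia, at list medians of -0.14 and -0.21 beside -0.05 and -0.08 over all genes. After rescaling by the median of ratios, 24 and 43 were lower, at medians of -0.07 and -0.13. How many of all genes were lower at this limit of p alone was not counted. These counts are therefore not read as a feature of the list. All 12 mice of the shared code series were below the other 30 in 19 of the 80, and in 454 of all 18829 genes detected in at least 6 mice. On the scale of the deposited normalised counts this held for 12 of the 80 and for 284 of the 18829. Their summed FPKM was 12707 ± 741 in 14-06h-ZH and 12134 ± 252 in 14-48h-ZH, against 13960 ± 475 in Normoxia (SD, n = 6 each).

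The FPKM of 5 copies was also divided by that of the parent, and 3 are described here. Rpl9-ps6 was at 0.169% ± 0.0996 of the level of Rpl9 in 14-06h-ZH and 0.224% ± 0.104 in 14-48h-ZH, against 2.65% ± 0.826 in Normoxia, and it reached 4.96% ± 1.38 in 07-06h-ZH and 5.08% ± 0.794 in 14-07w-JFJ (SD, n = 6 each). Gm9843 had the highest ratio of these 5, up to 10.0% ± 2.65 of the level of Fau in 14-07w-JFJ, against 4.47% ± 0.961 in Normoxia. Gm10073 was at 2.92% ± 0.699 of the level of Rplp1 in 14-07w-JFJ and 0.0357% ± 0.0275 in 14-06h-ZH, against 1.22% ± 0.397 in Normoxia. Whether reads moved between copy and parent was not tested.

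**Figure D3:**
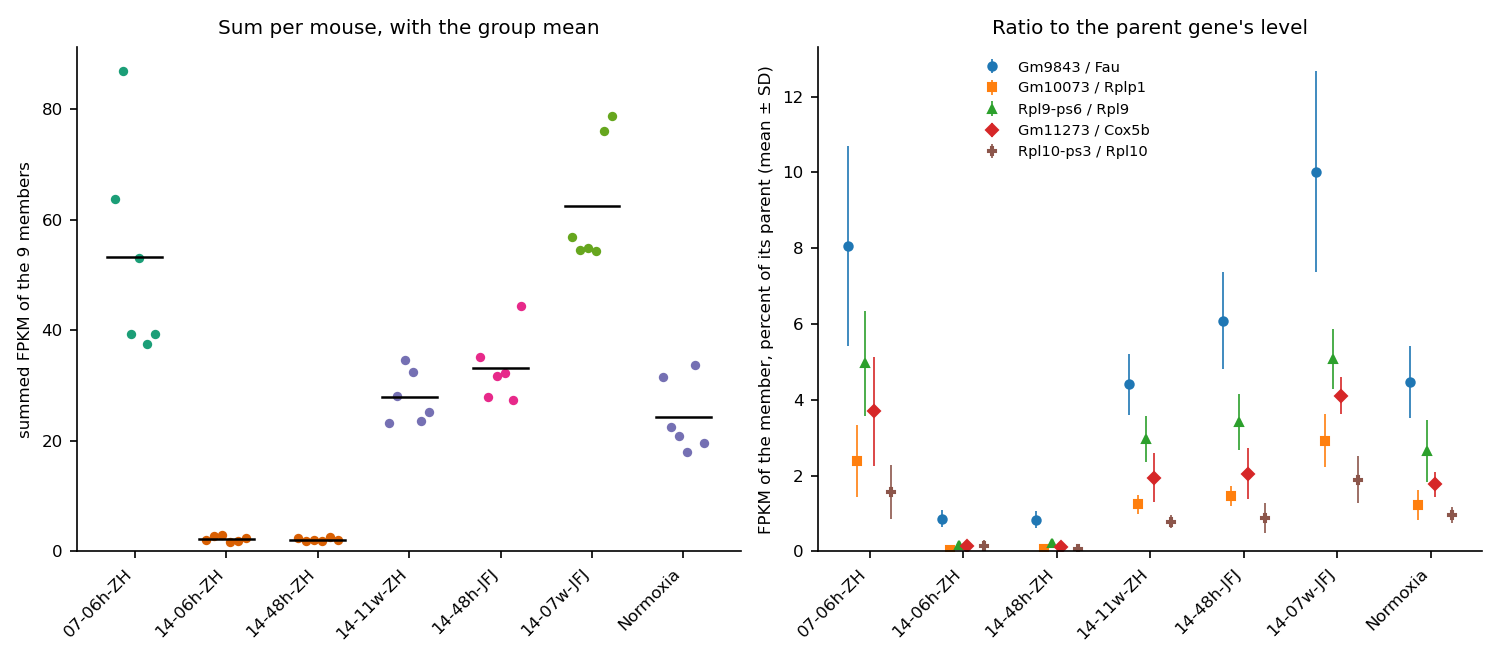
Left, summed FPKM of the 9 members in each mouse (points, coloured by code series) with the group mean (line); right, FPKM of 5 members as a percent of the parent gene (mean ± SD of 6 mice). Sums average 2.31 and 2.13 in 14-06h-ZH and 14-48h-ZH and 24.4 in Normoxia, and Gm9843 reaches 10.0% of Fau in 14-07w-JFJ.

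In 3 groups the 6 better detected members were highest in 1 or 2 mice. How often the same mice were highest over all genes was not counted. The 6 include the 4 Gm genes, chosen with results known, and values of 1 library are not independent. The counts below are thus a description. In 07-06h-ZH replicate 2 had the highest value of all 6 better detected members, and its sum of 86.9 FPKM exceeded the next mouse at 63.7. In 14-48h-JFJ replicate 6 was highest in all 6, and in 14-07w-JFJ replicates 5 and 6 were highest in 4 and 2 of them. In 14-06h-ZH and 14-48h-ZH, at a few reads per library, the highest value fell to 4 different mice each. In 14-11w-ZH replicate 3 was highest in 4 of the 6, and replicates 4 and 5 in 1 each. In Normoxia replicates 5, 1 and 3 were highest in 3, 2 and 1. The summed FPKM of red blood cell markers was 821.7 in replicate 2 of 07-06h-ZH and 178.4 in replicate 6 of 14-48h-JFJ, below the group maxima of 1877 and 417.9, and 405.3 in replicate 5 of 14-07w-JFJ, the maximum of its group, with 86.1 in replicate 6. The part of blood in these levels was not tested.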

How the data were processed

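RNA of 1 retina from each of 42 mice was sequenced with paired-end reads. The submitters' processing notes name STAR and the mouse genome build was GRCm38. The authors deposited FPKM values and normalised counts per gene for 25700 genes; the handling of reads that fit several genes is not given in the sources used here. Groups came from the sample titles. Both kinds of column were read through a map of library codes to samples, and 0 columns were left unmapped. FPKM as deposited was tested with limma 3.58.1 (R 4.3.3, trend and robust) on log2(FPKM + 0.1) over the 12 mice of 2 groups, leaving out genes with FPKM 0 in more than 3 mice of either. A call needed a Benjamini-Hochberg adjusted p of at most 0.05 and a log2 fold change of at least 1 in size. The study's own limits were of this kind, with edgeR on counts. The deposited normalised counts, a signal scaled by the authors, were whole multiples of 1 step in 36 of 42 libraries: 100% of their low values were whole within 0.1 steps, which recovered the reads tested with edgeR 4.0.16 as an alternative. Other alternatives were 2 further pseudocounts, 2 filters, rescaling by the median of ratios, all 7 groups in 1 fit, the replicate number as a block, and the normalised counts. Leaving out 1 mouse at a time and the test between altitude differences were added after the data were seen. The limma fit of 2 groups and the recovery of reads were tested on simulated data, and the other fits were not.

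Copies were matched to GENCODE M21 transcripts with blastn 2.17.0 on the plus strand. The parent was the best hit among protein-coding transcripts with several exons, leaving out symbols with -ps or beginning with Gm. Of the 9 members all had a transcript there. Genes were named by a rule: the 4 Gm genes, the 10 members highest in mean FPKM (all 9 here), each -ps member called, parents, and those next to the limit on mice. Members, lists and tests were chosen with earlier results of these data known. The parent of 1 member is not reported here.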

Additional observations from a re-analysis of the deposited data

Results flagged for a closer look

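The difference between Jungfraujoch and Zurich was larger after 48 h than after weeks in both -ps members that could be tested. For Rpl9-ps6 the 48 h difference exceeded the other by 3.11 ± 0.279 on the log2 scale (SE, limma adjusted p = 1.574e-08), and for Rpl10-ps3 by 1.49 ± 0.481 (limma adjusted p = 0.02268). The 48 h Zurich mice belong to the code series in which all 6 better detected members were low, so duration and code series cannot be told apart.

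In 6 of 58 sets of 6 mice, 1 mouse stood far from the other 5, where chance gives about 1 in 20. Gm11273 was lowest in replicate 2 of 14-07w-JFJ, at 5.53 FPKM. Rpl10-ps3 was highest in replicate 1 of 14-48h-ZH at 0.255 FPKM and in replicate 3 of 14-11w-ZH at 1.12 FPKM. Single detections, in which the other mice at 0 fixed the flag, were Rpl27-ps3 at 0.126 FPKM in replicate 5 of 14-06h-ZH and Rpl13a-ps1 at 0.0815 FPKM in replicate 1 of Normoxia. Rpl27-ps3 was highest in replicate 2 of 07-06h-ZH at 0.440 FPKM, where 4 of 6 mice were above 0.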

How the results depend on the processing

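The count of called members, here with the 4 Gm genes as a description, stayed within 1.5 times its value under every alternative in 7 of the 9 comparisons. The Gm genes, chosen with results known, carry much of these counts, and the -ps members alone were less steady. Rpl10-ps3 lost its call with a pseudocount of 1 in 14-06h-ZH and in 14-48h-ZH against Normoxia. Rpl9-ps6 gained a call with edgeR in 07-06h-ZH against Normoxia. In 14-07w-JFJ against 14-11w-ZH, 5 members were called, but 3 with a pseudocount of 1, 3 with all 7 groups in 1 fit and 3 with the replicate number as a block. Leaving out 1 mouse gave 3 to 5 called members there, with 3 only without replicate 6 of 14-11w-ZH. In 14-48h-JFJ against Normoxia 0 members were called, and 1 was without the filter on low FPKM. With a pseudocount of 0.01, 2 uncalled values changed sign: Gm11273 in 14-48h-ZH against 14-06h-ZH (0.28) and Rpl36a-ps1 in 14-48h-JFJ against Normoxia (0.07). Among repeats of called log2 fold changes under these alternatives, 264 kept the call, 12 lost it, 7 of them with a pseudocount of 1, and none changed sign. In 5 members all 12 mice of the shared code series lay below the other 30 on FPKM, normalised counts and rescaled FPKM alike. The edgeR test on recovered reads called both -ps members tested in 14-06h-ZH and in 14-48h-ZH against Normoxia. The 4 Gm genes passed its limits too, as a description. Over all genes tested edgeR called 248 and 198, and limma 167 and 140. Numbers of all genes called moved further: 49 to 259 and 45 to 203 over the alternatives in those comparisons. Correlations of same-numbered mice were mixed: in each comparison the lowest was 0.02 or less and the highest between 0.13 and 0.71. The same-numbered mouse was the best match for 0 to 2 of 6 mice per comparison. Apart from 14-07w-JFJ against 14-11w-ZH, the block changed no count of members. Depth limits the 3 weakest members and every level in 14-06h-ZH and 14-48h-ZH, where most members rest on a few reads per library.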
